A study of Mus musculus with 9 samples.

Results

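Heat shock chaperones are proteins that help other proteins to fold and that keep damaged ones from clumping. The 10 chaperone genes described here are Hspa1a, Hspa1b, Hspa8, Hsph1, Dnajb1, Hsp90aa1, Hsp90ab1, Hspb1, Hspd1 and Hspe1. They were chosen by name, with earlier results of these data known, and all 10 were found among the 24318 genes of each table. N2A (Neuro2A) cells, a mouse neuroblastoma line of wild-type genotype, had been transfected with scramble, EXOSC3 or DDX1 siRNA. The study asked what the loss of EXOSC3, a structural subunit of the RNA exosome, or of DDX1, a putative RNA helicase found together with EXOSC3, does to RNA in neuronal cells. RNA from 3 plates of each condition was depleted of ribosomal RNA and sequenced without regard to strand, which gave 9 libraries. The cells carried no other genetic change named in the labels, all groups received the same lipid transfection, and a transient siRNA leaves part of its target in place.

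In this family, HSP70 proteins bind unfolded stretches of other proteins and release them as they use ATP. HSP40 proteins bring the clients and start ATP use, and HSP110 proteins exchange the nucleotide. HSP90 proteins act later, on kinases, receptors and other nearly folded clients. Small heat shock proteins hold unfolded proteins without ATP. In mitochondria HSP60 and its lid HSP10 form a closed folding chamber. Heat shock factor 1 (HSF1) raises many of these genes under stress by binding repeats of the unit nGAAn, while several of them are made at high level in unstressed cells too.

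The 10 genes lie on 6 mouse chromosomes, and the positions here are those of the GENCODE vM1 annotation of NCBIM37, the sequence of mm9. Hspd1 (HSP60) is at chr1:55134679-55145087 on the minus strand and Hspe1 (HSP10) at chr1:55144976-55148151 on the plus strand. Their annotated spans overlap by 112 bases, so a few reads of this start region could belong to either gene. Hspa1b, at chr17:35093381-35096183, and Hspa1a, at chr17:35106144-35109069, are the stress-inducible HSP70 genes and both lie on the minus strand. Their coding sequences are 99.4% identical, with 8 mismatches and 3 gap bases, and 49.9% of the 100-base stretches of the Hspa1b transcript and 49.3% of those of Hspa1a occur in another of the Hspa1a, Hspa1b and Hspa1l transcripts. Reads from the coding part of these genes may therefore be split between them. The other 8 genes shared no such stretch with another annotated protein-coding transcript. The constitutive HSP70 gene Hspa8 (chr9:40609067-40613283, plus strand) has 5 genome copies with at least 95% identity over at least 50% of its transcript, and Hspb1, Hspd1, Hspe1 and Hsp90aa1 have 1 each, to which some of their reads could map. Hsph1, Dnajb1 and Hsp90ab1 have 0.

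Sequence before the starts was taken from RefSeq on GRCm38.p6, and 7 of the 10 genes had a window of 250 bases before to 50 bases after a start. Those of Hspa8, Hsp90aa1 and Hsp90ab1 were not searched here. The stretches that hold HSF1-type units are shown because these genes are known as targets of HSF1. The search used GAANNTTC (an inward pair) and TTCNNGAA (an outward pair), which read the same on both strands, and overlapping pairs make runs of 3 alternating units. Of all 32851 windows searched, 7.86% hold an inward pair, 8.52% an outward pair and 0.603% a run of 3 units. Capitals mark the units, and each sequence is written 5′ to 3′ on the strand of its gene.
Hspe1, chr1:55088048-55088077, plus strand: gccacggtccgTTCTAGAACCTTCCGGAAg
Hspd1, chr1:55088058-55088087, minus strand: cgcgcggggccTTCCGGAAGGTTCTAGAAc
Hsph1, chr5:149636282-149636311, minus strand: aatgctgcagaTTCTGGAAAGTTCtcctca
Hsph1, chr5:149636351-149636380, minus strand: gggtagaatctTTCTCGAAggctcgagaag
Hspb1, chr5:135887791-135887820, plus strand: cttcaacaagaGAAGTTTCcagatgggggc
Hspb1, chr5:135887811-135887840, plus strand: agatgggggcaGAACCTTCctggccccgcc
Hspa1b, chr17:34959324-34959353, minus strand: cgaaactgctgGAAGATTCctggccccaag
Hspa1a, chr17:34972242-34972271, minus strand: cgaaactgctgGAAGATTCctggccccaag

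Hspd1 and Hspe1 read the same run of units from opposite sides, from 144 bases before 1 of 2 Hspd1 starts and from 89 bases before the Hspe1 start. The window of the other Hspd1 start holds no pair, and the run lies after that start. The run in Hsph1 lies after the start in both of its windows, and a separate outward pair begins 33 or 54 bases before the start, depending on the window. Hspb1 had 2 inward pairs, Hspa1a and Hspa1b 1 each in an identical stretch of 30 bases, and neither Dnajb1 window had a pair. The 250 bases before the Hspa1a and Hspa1b starts are 98.8% identical, with 3 mismatches. A match of letters is a description of the sequence and not a measured binding site.

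The values are FPKM, fragments relative to transcript length and to the mapped fragments of a library, as the authors deposited them. How Cuffdiff scaled the libraries to each other is not given in the sources used here. Each knockdown was compared with the 3 scramble libraries of its own table. The targets were examined first. Exosc3 was 44.1 ± 1.56 FPKM (SD, n = 3) in scramble and 6.84 ± 0.836 FPKM (SD, n = 3) in siEXOSC3, and Ddx1 was 125.1 ± 5.40 FPKM (SD, n = 3) in scramble and 30.5 ± 3.73 FPKM (SD, n = 3) in siDDX1. Depth relative to scramble replicate 1, read from genes that rest on single fragments, lay between 0.828 and 1.21 over the 9 libraries, and the absolute depth is unknown. This reading also takes in any scaling of the libraries to each other. Of 15 neuroblastoma markers 13 had a mean of at least 1 FPKM in each table, among them Hand2 and Chga, while Th was 0.179 FPKM in scramble. No fibroblast or macrophage marker passed that mean, and Col1a2, Col3a1 and Lum were listed at 0 in every library. The summed neuroblastoma markers lay between 660.1 and 711.0 FPKM in scramble and between 1192.5 and 1301.3 FPKM in siEXOSC3, where 9 of 13 increased beside 16.7% of all genes tested. In the siDDX1 table they lay between 654.9 and 702.7 FPKM in scramble and between 689.1 and 742.9 FPKM in siDDX1. There 2 of 13 increased beside 5.61% of all genes. The median log2 fold change of the 13 was 0.69 in siEXOSC3 but -0.12 in siDDX1. In siDDX1, 3 of them lay above and 3 below all scramble libraries. The part of these marker changes in the results below was not tested. In bulk RNA, a change in the cells and a change in the RNA of each cell cannot be told apart.

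In scramble cells these genes spanned a wide range of expression. Hsp90ab1, the constitutive cytosolic HSP90, was highest with 2005 ± 60.0 FPKM (SD, n = 3), followed by Hspa8 with 1654 ± 71.2 FPKM (SD, n = 3). Both were above 99.8% of all genes in the table. Hspe1 had 966.8 ± 52.0 FPKM, Hspd1 794.3 ± 47.8 FPKM and Hsp90aa1, the inducible cytosolic HSP90, 767.3 ± 14.8 FPKM (SD, n = 3 each). The libraries of Hspd1 and Hsp90aa1 overlapped, so these neighbours in the order do not differ beyond their spread. Hsph1, the HSP110 of the cytosol, had 145.3 ± 3.02 FPKM and Dnajb1, the main stress-inducible HSP40, 28.1 ± 0.820 FPKM (SD, n = 3 each). Far below these came Hspb1, the small heat shock protein HSP27, with 0.186 ± 0.174 FPKM, then Hspa1b with 0.0309 ± 0.0125 FPKM (SD, n = 3 each), and Hspa1a was listed at 0 in all 3 scramble libraries. The lowest genes, Hspb1 and Hspa1b, overlapped as well. In all, the 10 genes summed to between 0.862 and 0.882% of the FPKM in a scramble library.

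**Figure D1:**
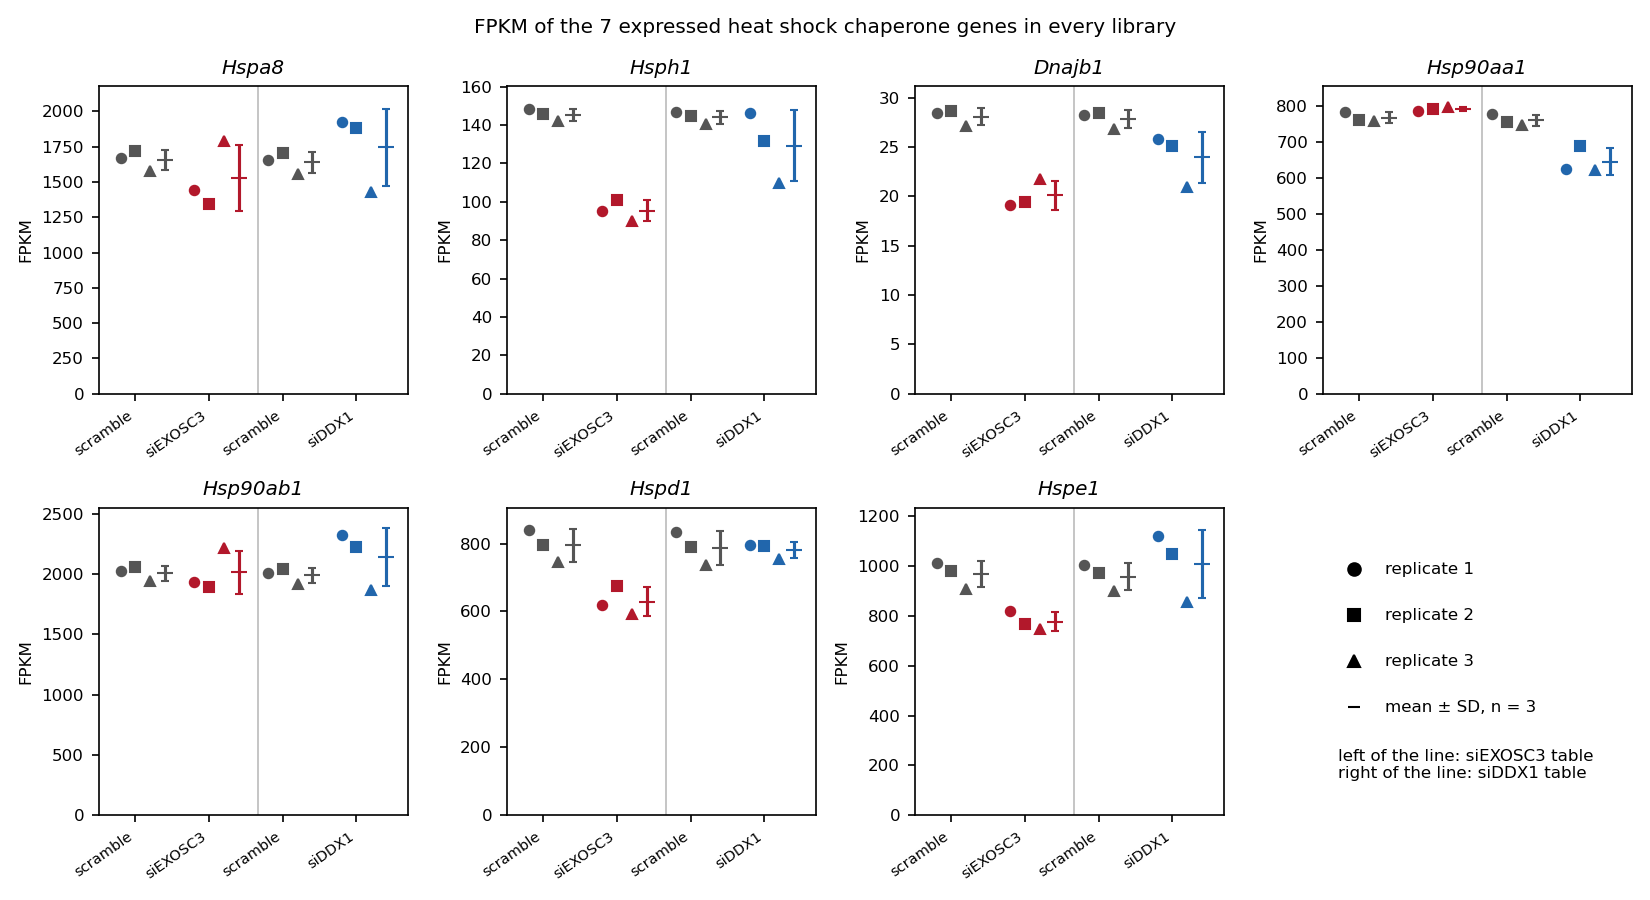
FPKM (y axis, from 0) of the 7 expressed chaperone genes in each library, with the siEXOSC3 table left and the siDDX1 table right of the grey line, replicates 1 to 3 as circle, square and triangle, and the mean ± SD (n = 3) beside them. Hsph1, Dnajb1, Hspd1 and Hspe1 lie below scramble in all 3 siEXOSC3 libraries, and the triangle of siDDX1 replicate 3 is the lowest siDDX1 point in all 7 panels. The triangle of scramble replicate 3 is likewise the lowest scramble point in all 7 panels, on both sides of the line.

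Depletion of EXOSC3 lowered 4 of these genes, each by a modest amount. Hsph1 and Dnajb1, the HSP110 and HSP40 partners of HSP70, fell by 34.4% and 28.4%, and both parts of the mitochondrial chaperonin, Hspd1 and Hspe1, fell by 20.8% and 19.6%. The abundant cytosolic chaperones Hspa8, Hsp90aa1 and Hsp90ab1 did not pass the test, and no member increased. Of the 7 members with a mean of at least 1 FPKM, 4 decreased, beside 15.7% of all 11242 genes tested, and 0 increased, beside 16.7% (limma, adjusted p under 0.05). At an unadjusted limma p under 0.05 the counts were also 4 and 0. The median log2 fold change of these 7 was -0.31, and that of all genes tested was -0.0145. Among the 187 genes with a scramble mean of at least 500 FPKM, a set taken after the values were seen because 5 of the members reach that level, the median was 0.0156, 4.28% decreased and 8.02% increased.

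Hsph1 had 95.2, 101.1 and 90.0 FPKM in siEXOSC3 replicates 1, 2 and 3, and 148.1, 145.7 and 142.1 FPKM in the scramble replicates. The groups do not overlap, and the lowest scramble library is above the highest siEXOSC3 library. The log2 fold change was -0.60 (SE 0.0657, limma adjusted p = 0.00103), the largest of the 7.

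Dnajb1 had 19.1, 19.5 and 21.8 FPKM in siEXOSC3, and 28.5, 28.7 and 27.2 FPKM in scramble. Again no library of one group reached the other, and the log2 fold change was -0.47 (SE 0.0718, limma adjusted p = 0.00341). Hsph1 and Dnajb1 kept an adjusted p under 0.05 in all 14 alternative fits, with the highest being 0.00998 and 0.0238. An exact permutation test of 3 libraries against 3 gave p = 0.1 for each of the 4 decreased genes, which is the lowest it can give.

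Hspd1 had 617.9, 676.2 and 593.7 FPKM in siEXOSC3, and 841.3, 795.9 and 745.7 FPKM in scramble. Hspe1, its partner, had 820.6, 766.5 and 745.5 FPKM in siEXOSC3, and 1011, 979.9 and 909.6 FPKM in scramble. Both genes lay below scramble in all 3 libraries. The log2 fold change was -0.34 for Hspd1 (SE 0.0826, limma adjusted p = 0.0175) and -0.31 for Hspe1 (SE 0.0787, limma adjusted p = 0.0187). The ratio of Hspe1 to Hspd1 within a library, chosen after the values were seen, was 1.24 ± 0.0983 in siEXOSC3 and 1.22 ± 0.0149 in scramble (SD, n = 3 each, exact permutation p = 0.7).
The calls on Hspd1 and Hspe1 were lost when some of the libraries were left out. Without scramble replicate 1 their limma adjusted p was 0.0855 and 0.0916, without scramble replicate 2 it was 0.0577 and 0.0643, and without siEXOSC3 replicate 1 that of Hspd1 was 0.0627. The number of all genes called also fell from 3644 to 1610, 2256 and 2042 in these fits.

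Hspa8 had 1440.0, 1347 and 1790.1 FPKM in siEXOSC3, and 1667, 1718 and 1577 FPKM in scramble. Replicates 1 and 2 were below and replicate 3 above every scramble library, so the groups overlap, and the log2 fold change of -0.13 had an interval from -0.39 to 0.14 (95%, limma adjusted p = 0.419). Hsp90ab1 had 1931, 1890 and 2218 FPKM in siEXOSC3, and 2023, 2054 and 1938 FPKM in scramble, with the same replicate highest. Its log2 fold change was 0.0026, with an interval from -0.21 to 0.21 (95%, limma adjusted p = 0.985), and it turned negative in 3 of the 14 alternative fits, namely with quantile normalization (-0.0846), without siEXOSC3 replicate 3 (-0.0692) and without scramble replicate 3 (-0.0217). Hsp90aa1 had 786.9, 792.1 and 797.8 FPKM in siEXOSC3, and 784.3, 760.1 and 757.5 FPKM in scramble. All siEXOSC3 values were just above all scramble values, which 23.8% of the genes tested share, but the log2 fold change was 0.0462 with an interval from -0.11 to 0.20 (95%, limma adjusted p = 0.614). Values below all scramble libraries, as in the 4 decreased genes, were found for 25.9% of the genes tested.

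With the fall of the chaperonin genes the order of levels was not that of scramble. In siEXOSC3 the means of Hsp90aa1 and Hspe1 were 792.2 ± 5.44 and 777.6 ± 38.7 FPKM (SD, n = 3 each), with overlapping libraries, and Hspd1 had 629.3 ± 42.4 FPKM (SD, n = 3), whereas in scramble Hspe1 was above Hsp90aa1 in every library. The 10 genes together made up 0.733, 0.756 and 0.890% of the FPKM in siEXOSC3 replicates 1, 2 and 3. Replicates 1 and 2 were below the scramble range and replicate 3 above it. With Rmrp, an abundant noncoding RNA, taken out of the total, the shares were 0.868, 0.883 and 0.989% in siEXOSC3 and 0.996 to 1.02% in scramble, so that replicate 3 was below scramble too. Hspa8 and Hsp90ab1, the largest terms of the sum, were highest in replicate 3.

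**Figure D2:**
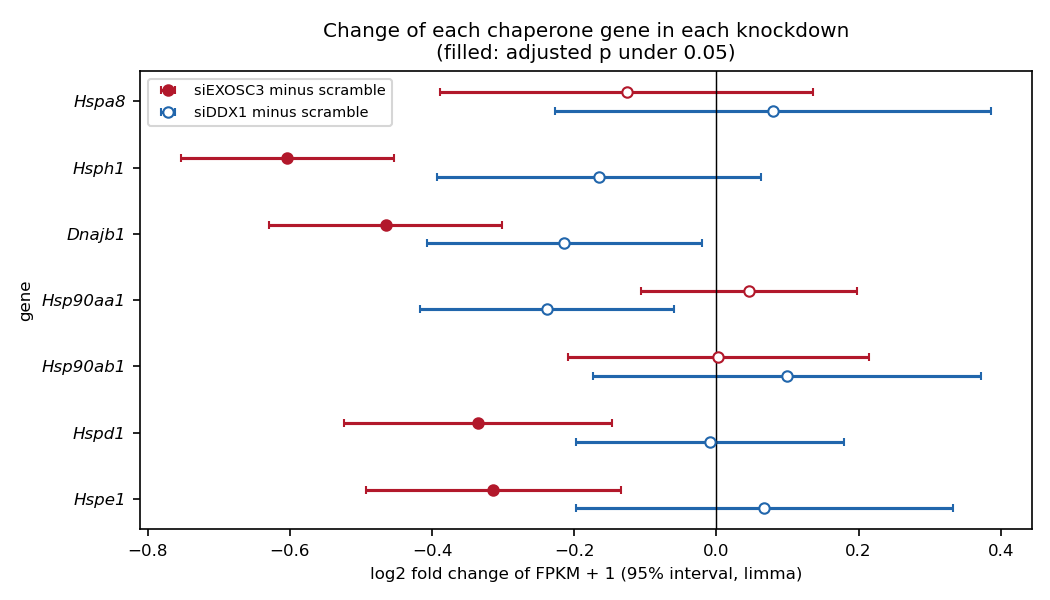
Log2 fold change of FPKM + 1 (x axis) with its 95% limma interval for the 7 expressed chaperone genes (y axis), siEXOSC3 in red and siDDX1 in blue, filled where the adjusted p was under 0.05. The 4 filled points, Hsph1, Dnajb1, Hspd1 and Hspe1, are all of siEXOSC3 and lie between -0.60 and -0.31, and no siDDX1 point is filled.

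Depletion of DDX1 gave no called change in these genes. Of the 7 members tested 0 increased, beside 5.61% of all 11104 genes, and 0 decreased, beside 5.03% (limma, adjusted p under 0.05). At an unadjusted limma p under 0.05 there were 2, Hsp90aa1 and Dnajb1, both lower in siDDX1. Values below all scramble libraries, as in these 2 genes, were found for 17.8% of the genes tested, and values above all of them, as in none of the members, for 17%. The median log2 fold change of the 7 was -0.0092 and that of all genes tested -0.0006.

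Hsp90aa1 had 625.4, 688.3 and 621.1 FPKM in siDDX1, and 778.1, 754.2 and 748.6 FPKM in the scramble libraries of that table. The groups do not overlap, and the mean was 84.8% of scramble. The log2 fold change was -0.24 (SE 0.0779) with an interval from -0.42 to -0.06 (95%), and the limma adjusted p was 0.0841. This p lay between 0.00579 and 0.259 over the 14 alternative fits, and the gene was called in 2 of them, with quantile normalization and with the replicate number as a block.
Dnajb1 had 25.8, 25.1 and 21.0 FPKM in siDDX1, and 28.2, 28.5 and 26.8 FPKM in scramble. Here too the groups do not overlap, with a log2 fold change of -0.21 (SE 0.0844, limma adjusted p = 0.132).

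The other HSP90 gene, Hsp90ab1, overlapped scramble. It had 2326, 2222 and 1865 FPKM in siDDX1, and 2007, 2038 and 1915 FPKM in scramble, so replicates 1 and 2 were above and replicate 3 below all scramble libraries. Its log2 fold change was 0.0996, with an interval from -0.17 to 0.37 (95%, limma adjusted p = 0.611), and with quantile normalization it was -0.20 and was called (limma adjusted p = 0.0445). The ratio of Hsp90aa1 to Hsp90ab1 within a library, chosen after the values were seen, was 0.269, 0.310 and 0.333 in siDDX1, and 0.388, 0.370 and 0.391 in scramble. It was lower in all 3 siDDX1 libraries, at 0.304 ± 0.0324 against 0.383 ± 0.0112 (SD, n = 3 each, exact permutation p = 0.1, the lowest that 3 against 3 can give). In siEXOSC3 the ratio was 0.395 ± 0.0316 (SD, n = 3, exact permutation p = 0.5), and its libraries overlapped those of scramble.

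Hspa8 had 1926, 1882 and 1431 FPKM in siDDX1, and 1654, 1705 and 1559 FPKM in scramble. The siDDX1 libraries surrounded those of scramble, and the log2 fold change was 0.0797, with an interval from -0.23 to 0.39 (95%, limma adjusted p = 0.734). Hsph1 had 146.2, 131.8 and 109.7 FPKM in siDDX1, and 146.9, 144.6 and 140.4 FPKM in scramble, which overlap in replicate 1. Its log2 fold change was -0.16, with an interval from -0.39 to 0.06 (95%, limma adjusted p = 0.297).
The chaperonin pair was close to scramble. Hspd1 had 795.4, 794.1 and 754.5 FPKM in siDDX1, and 834.7, 789.7 and 737.0 FPKM in scramble, with a log2 fold change of -0.0092 and an interval from -0.20 to 0.18 (95%, limma adjusted p = 0.955). Hspe1 had 1120.2, 1049.7 and 857.6 FPKM in siDDX1, and 1003, 972.3 and 898.9 FPKM in scramble, with a log2 fold change of 0.0673 and an interval from -0.20 to 0.33 (95%, limma adjusted p = 0.739). Both pairs of groups overlap.

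In siDDX1, replicate 3 was the lowest of the 3 libraries for all 7 expressed members, and it was the lowest for 40.7% of all genes tested. Scramble showed the same order, with its replicate 3 the lowest for all 7 members and for 38.9% of all genes tested. The FPKM of all genes summed to 893687, 848242 and 738926 in siDDX1 replicates 1, 2 and 3, against 692933 to 745839 in scramble, and the noncoding RNA Rmrp made up 17.3, 15.4 and 11.9% of it. The part of these differences in the members' values was not tested. Without siDDX1 replicate 3, 3524 genes were called in place of 1182, and still no member. The log2 fold changes were then 0.22 for Hspa8, 0.19 for Hsp90ab1, 0.18 for Hspe1 and -0.21 for Hsp90aa1 (limma adjusted p = 0.0541). Those of Dnajb1, Hsph1 and Hspd1 were -0.12, -0.0523 and 0.0157.
Abundant genes stood higher in siDDX1 as a whole: the 185 genes with a scramble mean of at least 500 FPKM had a median log2 fold change of 0.28, of which 2.70% increased and 0% decreased. The 10 members together made up 0.779, 0.801 and 0.766% of the FPKM in the siDDX1 libraries, below the 0.862 to 0.882% of scramble. With quantile normalization, which gives every library the same distribution, the members' median was -0.23 and Hsp90aa1 (-0.45, limma adjusted p = 0.00579) and Hsp90ab1 were both called as decreased, while Hspa8 and Hspe1 turned to -0.23 and -0.17 without passing the test.

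**Figure D3:**
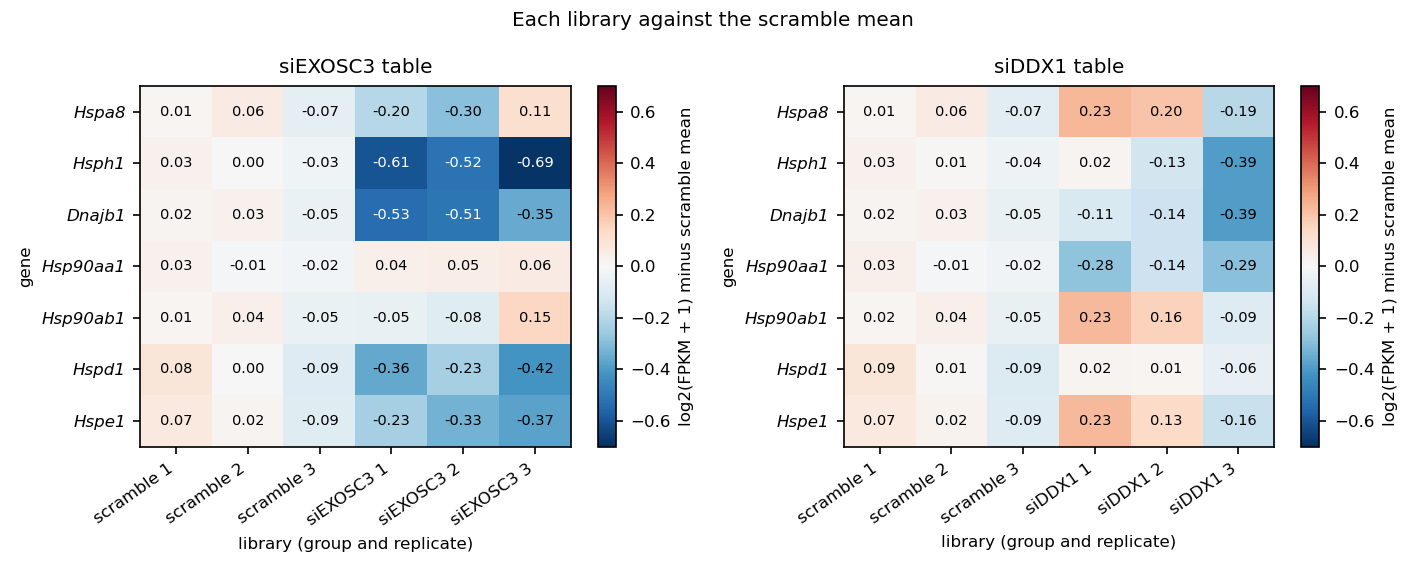
Log2(FPKM + 1) of each library minus the mean of the scramble libraries (colour, with the value in each cell) for the 7 expressed chaperone genes (rows) and the 6 libraries of each table (columns). Scramble libraries stay between -0.093 and 0.0864, siEXOSC3 libraries reach -0.69 in Hsph1, and in siDDX1 replicate 3 is the lowest of its group in every row. Scramble replicate 3 is likewise the lowest of its group in every row of both tables.

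The stress-inducible HSP70 genes and Hspb1 were close to 0 in every library of every condition. Hspa1a was listed at 0 in all 6 libraries that were scaled with siEXOSC3. In siDDX1 replicates 2 and 3 it had 0.0175 and 0.0151 FPKM, and it was listed at 0 in the other 4 libraries of that table. Hspa1b had 0.132, 0.0373 and 0.042 FPKM in siEXOSC3, 0, 0.0523 and 0 FPKM in siDDX1, and between 0.0165 and 0.0396 FPKM in the scramble libraries of the siEXOSC3 table. Hspb1 had 0.295, 0.0825 and 0.182 FPKM in siEXOSC3, was listed at 0 in all 3 siDDX1 libraries, and had 0, 0.344 and 0.214 FPKM in the scramble libraries of the siEXOSC3 table.
None of these genes came near the mean of 1 FPKM needed for the test, no fold change is given for them, and at this level a value can rest on very few fragments. With no filter on low values, none was called (limma adjusted p between 0.233 and 0.970). Because Hspa1a and Hspa1b share nearly all of their coding sequence, their FPKM were also added up, and the sum did not exceed 0.132 FPKM in the siEXOSC3 table or 0.0699 FPKM in the siDDX1 table. Their neighbour Hspa1l, an HSP70 gene with a like coding sequence, had 1.47 ± 0.339 FPKM in scramble and 1.74 ± 0.174 FPKM in siEXOSC3 (SD, n = 3 each, limma adjusted p = 0.38).

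**Figure D4:**
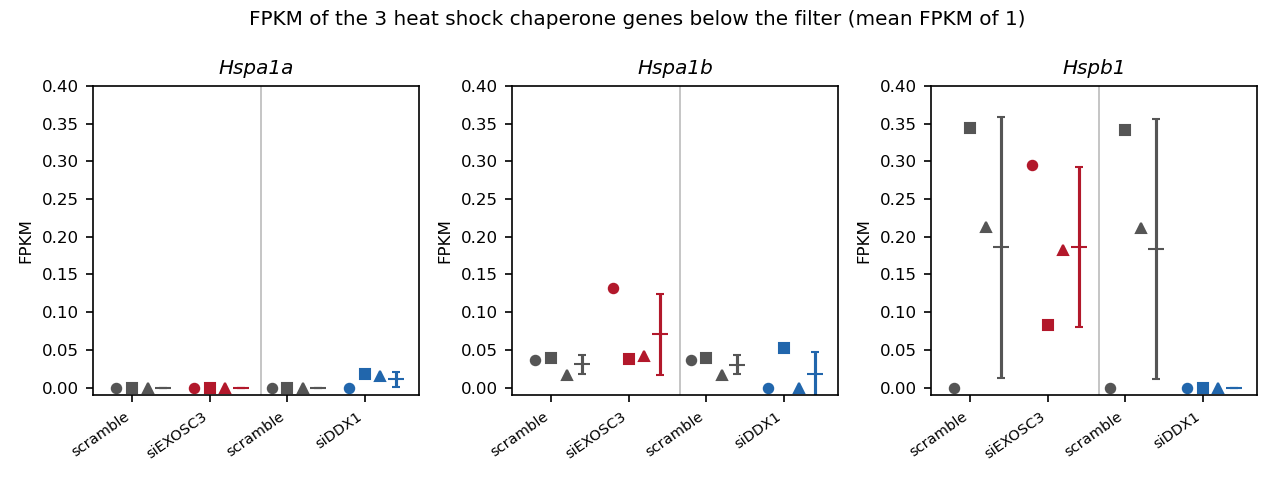
FPKM (y axis, 0 to 0.4) of Hspa1a, Hspa1b and Hspb1 in each library, laid out by table, with replicates 1 to 3 as circle, square and triangle and the mean ± SD (n = 3). No value exceeds 0.344 FPKM, and Hspb1 is at 0 in the 3 siDDX1 libraries and in scramble replicate 1.

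The other genes of the chaperone system were counted by lists that follow their roles, some of which share genes. Their counts stand beside the same shares of all genes tested as above, 16.7% increased and 15.7% decreased in siEXOSC3 and 5.61% and 5.03% in siDDX1, and nothing is read from them as particular to a list. The factors that switch on the response were examined first. Hsf1, the main heat shock factor, had 21.9, 20.9 and 21.5 FPKM in siEXOSC3, and 24.7, 22.7 and 27.9 FPKM in scramble, all 3 below scramble, with a log2 fold change of -0.21 (SE 0.0828, limma adjusted p = 0.0784). In siDDX1 it was 28.1 ± 2.18 FPKM against 24.9 ± 2.54 FPKM (SD, n = 3 each, limma adjusted p = 0.231). Hsf2, a related factor, had a log2 fold change of -0.17 in siEXOSC3 (limma adjusted p = 0.147) and -0.0867 in siDDX1 (limma adjusted p = 0.454). Hsf4 and Hsf5 were below 1 FPKM. At an unadjusted limma p under 0.05, 1 factor, Hsf1 in siEXOSC3, was lower.

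Of 18 further genes induced by HSF1, 4 decreased and 2 increased in siEXOSC3, with a median log2 fold change of -0.0834. The decreased ones were Ahsa1, which stimulates the ATP use of HSP90 (184.7 ± 4.66 to 130.4 ± 10.2 FPKM, log2 fold change -0.50, limma adjusted p = 0.00293), Cryab, Chordc1 and Hspa4l. The increased ones were low, namely the HSP40 gene Dnajb4 (4.68 ± 0.158 to 7.75 ± 1.43 FPKM, limma adjusted p = 0.00887) and the collagen chaperone Serpinh1 (0.636 ± 0.227 to 1.41 ± 0.180 FPKM, limma adjusted p = 0.0171). Serpinh1 passed the filter on low values only through its siEXOSC3 level, so its call is no support for an increase. In siDDX1 17 were tested, 3 decreased (Cryab, Hspa4l and Chordc1) and 0 increased, with a median of -0.0093.

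Among 10 other HSP70 and HSP110 genes, 4 decreased and 2 increased in siEXOSC3, with a median of -0.0239. Hspa14, an HSP70 that works on ribosomes, fell from 78.2 ± 2.04 to 61.6 ± 10.9 FPKM (SD, n = 3 each, limma adjusted p = 0.0487). Hspa2 (1.70 ± 0.216 to 3.82 ± 0.938 FPKM, limma adjusted p = 0.00697) and Hspa12a (7.16 ± 1.17 to 11.2 ± 1.66 FPKM, limma adjusted p = 0.0125) rose from low levels. In siDDX1 9 were tested and 2 decreased, the HSP110-type gene Hspa4l (63.8 ± 0.595 to 48.3 ± 2.43 FPKM, limma adjusted p = 0.00859) and Hspa1l (1.46 ± 0.335 to 0.694 ± 0.172 FPKM, limma adjusted p = 0.0458). Hspa1l passed the filter on low values only through its scramble level, so its call is no support for a decrease, and its reads cannot be fully told from those of Hspa1a and Hspa1b.

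Of the 42 other HSP40 genes tested in siEXOSC3, 8 increased and 4 decreased, and the median was 0.0575. The largest changes were increases of Dnajb4, Dnajb5 and Dnajc4, with log2 fold changes of 0.61, 0.55 and 0.54. In siDDX1 40 were tested, 3 increased and 1 decreased. The increased ones were Dnajc6 (auxilin, which uncoats clathrin vesicles), Dnajb5 and Dnajc15, with log2 fold changes of 0.55, 0.41 and 0.38, and the decreased one was Dnajc9, a histone cochaperone, with -0.34.
Both other HSP90 genes, Hsp90b1 of the endoplasmic reticulum and Trap1 of mitochondria, did not pass the test in either knockdown, and Hsp90b1 had log2 fold changes of 0.0673 in siEXOSC3 and -0.0184 in siDDX1 (limma adjusted p = 0.634 and 0.937), Trap1 of -0.0331 and 0.12 (limma adjusted p = 0.692 and 0.148).

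Of the 15 HSP90 cochaperones, 3 decreased in siEXOSC3 (Ahsa1, the prolyl isomerase Ppid and Chordc1) and 1 increased (Fkbp5), with a median of -0.11. Ppid fell from 156.9 ± 3.08 to 119.2 ± 12.2 FPKM and Chordc1 from 68.2 ± 2.22 to 53.9 ± 5.03 FPKM (SD, n = 3 each, limma adjusted p = 0.00942 and 0.0143). In siDDX1 2 decreased, Cdc37l1 (24.2 ± 0.790 to 18.0 ± 0.385 FPKM, limma adjusted p = 0.00822) and Chordc1 (limma adjusted p = 0.0488), and the median was -0.0084.
No nucleotide exchange factor or cochaperone of HSP70 passed the limma test among 10 in either knockdown, and at an unadjusted p under 0.05 there were 1 higher and 1 lower in siEXOSC3 and 1 lower in siDDX1. The most abundant were St13, which had log2 fold changes of -0.0834 in siEXOSC3 and -0.11 in siDDX1 (limma adjusted p = 0.483 and 0.581), Stip1, which links HSP70 to HSP90, with -0.0676 and 0.0846 (limma adjusted p = 0.472 and 0.476), and Bag6 with 0.0106 and -0.0234 (limma adjusted p = 0.908 and 0.837).

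Among the small heat shock proteins, Cryab and Hspb2, head-to-head neighbours in the genome, decreased in each knockdown against the same scramble libraries. Cryab was 21.0 ± 3.91 FPKM in scramble and 14.9 ± 1.27 FPKM in siEXOSC3 (limma adjusted p = 0.0257), and beside siDDX1 with 11.8 ± 0.366 FPKM scramble had 20.8 ± 3.83 FPKM (limma adjusted p = 0.01; SD, n = 3 each). Hspb2 fell by 41.5% in siEXOSC3 and by 33.7% in siDDX1 (limma adjusted p = 0.00574 and 0.0140). They were 2 of 5 tested in siEXOSC3 and 2 of 4 in siDDX1, and no other of these genes was called.

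The mitochondrial chaperones and proteases beside Hspd1 and Hspe1 had a median of -0.0607 in siEXOSC3, and 2 of 14 decreased. These were Clpx, the ATPase of a matrix protease (18.0 ± 1.05 to 13.7 ± 0.792 FPKM, limma adjusted p = 0.00904), and Hspa9, the matrix HSP70 (439.1 ± 25.3 to 369.9 ± 24.1 FPKM, limma adjusted p = 0.0416; SD, n = 3 each). In siDDX1 the median was 0.11 and 1 of 14 increased, Spg7, with 0 decreased. The cytosolic chaperonin TRiC with prefoldin had 14 tested genes. In siEXOSC3 Cct3 decreased (305.3 ± 7.79 to 239.5 ± 19.4 FPKM, limma adjusted p = 0.0111) and Vbp1 increased (84.2 ± 9.12 to 103.5 ± 8.32 FPKM, limma adjusted p = 0.0443), and in siDDX1 Pfdn4 increased (97.2 ± 6.96 to 117.5 ± 0.732 FPKM, limma adjusted p = 0.0365; SD, n = 3 each). In siDDX1 the list had a median log2 fold change of 0.19, beside -0.0006 for all genes tested and 0.28 for those of at least 500 FPKM, a level that only Cct2 of these genes had in scramble.

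**Figure D5:**
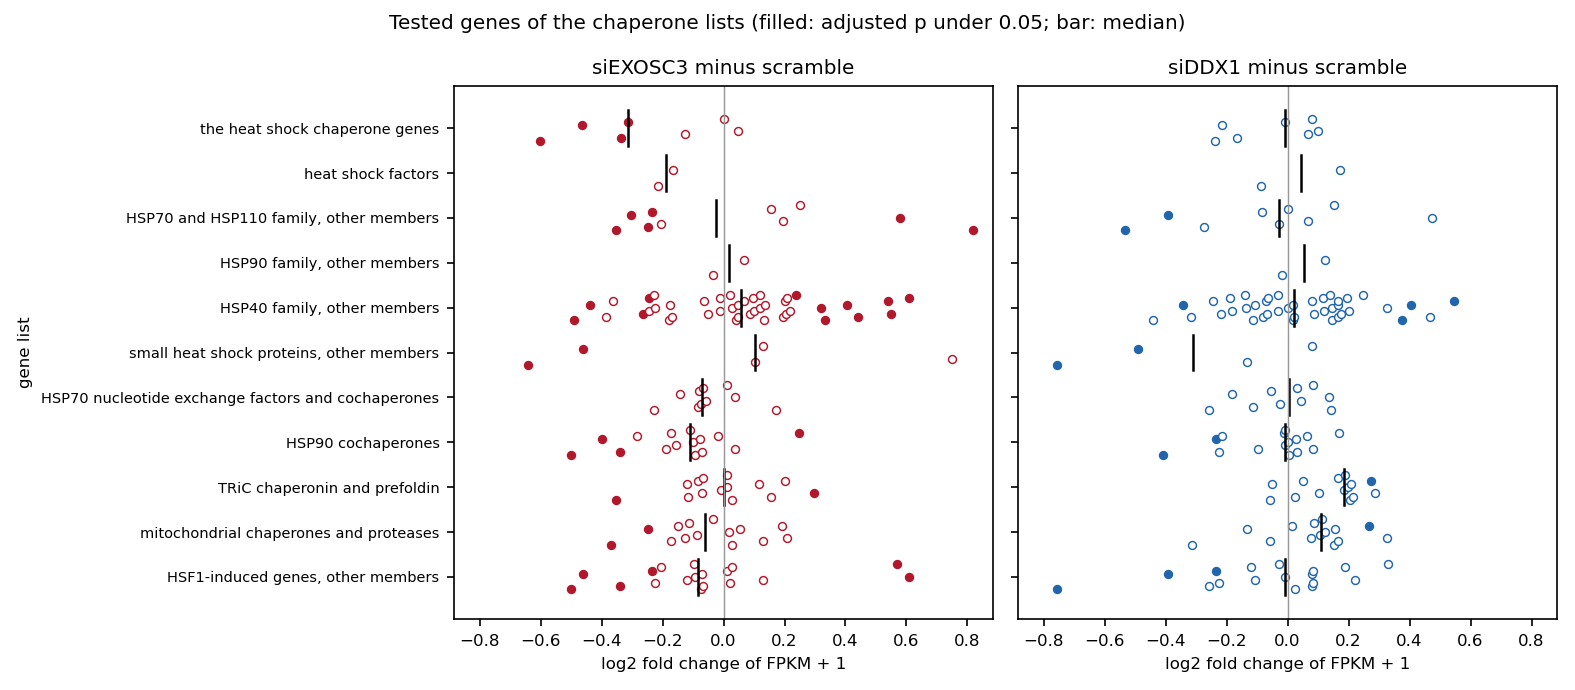
Log2 fold change of FPKM + 1 (x axis) of every tested gene in the 10 chaperone genes and the 10 related lists (y axis), siEXOSC3 left and siDDX1 right, with filled points for an adjusted p under 0.05 and a bar for the median. In siEXOSC3 the chaperone genes have a median of -0.31 and 4 filled points below 0, while the HSP40 list has 8 filled points above 0 and 4 below.

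Genes that lie within 5000 bases of a member in the annotation were checked as well. Beside Hspa1b, the noncoding 1110038B12Rik decreased in siEXOSC3 from 633.5 ± 89.4 to 476.0 ± 54.2 FPKM (SD, n = 3 each, limma adjusted p = 0.0355), and in siDDX1 it was 775.4 ± 179.4 against 627.8 ± 89.8 FPKM (SD, n = 3 each, limma adjusted p = 0.322). Beside Hsp90ab1, Slc35b2 and Nfkbie did not pass the test in either knockdown (limma adjusted p between 0.360 and 0.850), and Wdr95 beside Hsph1 did not exceed 0.057 FPKM. The span of Hspa8 holds the snoRNA genes Snord14c, Snord14d and Snord14e, and Gm20481 overlaps Hspa1a by 2213 bases on the other strand, but none of these 4 has a row of that name in the tables.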

How the data were processed

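Reads were aligned by the authors to mm9 with TopHat2 2.1.0, and Cuffdiff 2.2.1 was run per knockdown. The deposited FPKM of 24318 genes fill 2 tables, each with 1 knockdown and the 3 scramble libraries. The annotation and the library scaling used in Cuffdiff are not given in the sources used here. FPKM are not counts, so log2(FPKM + 1) of genes with a mean of at least 1 FPKM in a table was tested with limma 3.58.1 in R 4.3.3 (intensity trend, no covariates, two-sided) and adjusted by Benjamini-Hochberg over all tested genes, with 0.05 as the threshold. On this scale changes of low genes come out too small. The tables were scaled separately, so the knockdowns were not tested against each other.

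The members and lists were chosen with earlier results of these data known. Genes named beside them are the targets, Hsf1, genes near a member and, per list and knockdown, at most 3 called genes with the largest change whose groups do not overlap, or the 3 most abundant where none was called. Other names were chosen after their values were seen. Of 6 glial markers 1, Mbp, had a mean of at least 1 FPKM. Shared stretches and genome copies came from GENCODE vM1 and BLAST, and windows before the starts from RefSeq on GRCm38.p6. Alternative fits used a pseudocount of 0.1, no filter, a minimum mean of 5 FPKM, quantile normalization, median centring, no trend, a replicate block, a threshold of 0.01, or 1 library fewer. The fit was also run on simulated normal values with the means and spread of these data. Such values do not show how it behaves with shifts of whole libraries.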

Additional observations from a re-analysis of the deposited data

Results flagged for a closer look

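Hsp90aa1 was taken up because its values moved to opposite sides of scramble in the 2 knockdowns. All 3 siEXOSC3 libraries were above all 3 scramble libraries of their table (log2 fold change 0.0462, limma adjusted p = 0.614), and all 3 siDDX1 libraries were below them (log2 fold change -0.24, limma adjusted p = 0.0841). Neither change passed the threshold, the same scramble libraries serve both, and the difference between the knockdowns was not tested because their tables were scaled separately. None of the other 6 expressed members did this. Values above all scramble libraries in siEXOSC3 were found for 23.8% of the genes tested, and values below them in siDDX1 for 17.8%. How many genes had both was not counted.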

How the results depend on the processing

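Hsph1 and Dnajb1 in siEXOSC3 kept their direction and their call in all 14 alternatives. Over the 7 expressed members in both knockdowns, 177 of 196 alternative values kept direction and side of the threshold, 7 lost the call (Hspd1 and Hspe1 in siEXOSC3), 2 gained it with the same sign (Hsp90aa1 in siDDX1) and 10 changed sign. None of the 10 was called in the fit as reported, and 1 was called after the change, Hsp90ab1 in siDDX1 with quantile normalization (limma adjusted p = 0.0445). A threshold of 0.01 left 2 members decreased and 1349 genes called in siEXOSC3, and 183 genes called in siDDX1. With no filter 717 genes were called in siDDX1. Quantile normalization gave 2 decreased members in siDDX1 with a median of -0.23, and turned Hspa8 (-0.23), Hsp90ab1 (-0.20) and Hspe1 (-0.17) there and Hsp90ab1 in siEXOSC3 (-0.0846) to negative values. Centring on the median turned Hspd1 in siDDX1 to 0.0162. Leaving out each library gave 2 to 4 decreased members and 1610 to 4887 called genes in siEXOSC3, and 158 to 3524 called genes in siDDX1, and changed the sign of Hsp90ab1 in siEXOSC3 (-0.0692 to 0.0464), and of Hspd1 (-0.0557 to 0.034) and Hspe1 (-0.0125 to 0.18) in siDDX1. The cause of these changes was not tested.

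The labels do not say that a replicate number marks a shared batch, and the numbers were not taken as pairs, because not every same-numbered pair deviated together. Correlations of the deviations of pairs 1, 2 and 3 were 0.0346, -0.31 and -0.13 in the siEXOSC3 table and -0.0121, 0.38 and 0.37 in the siDDX1 table, where pairs 2 and 3 did deviate together. The fit with a replicate block called 1893 genes in siDDX1 and 1 member, Hsp90aa1 (limma adjusted p = 0.0437), and 2449 genes and the same 4 members in siEXOSC3. The sum of Hspa1a and Hspa1b stayed under the filter and entered only the fit with no filter, where it was not called (limma adjusted p = 0.394 in siEXOSC3 and 0.963 in siDDX1). Hspa1a, Hspa1b and Hspb1 did not exceed 0.344 FPKM in any library, and at this level no fold change can be stated for them.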
